A study of Mus musculus with 10 samples.

Results

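Cells of a mouse macrophage line that overexpressed miR-342-3p were compared with cells of the same line that carried a scramble sponge. There were 3 overexpression libraries and 2 scramble libraries, 5 of the 10 libraries of the series, and they were chosen by their titles. The line is labelled iKCs, and the labels do not expand the name. All cells carried 1 of 4 vectors, delivered as LV in the words of the design text, and were sorted alive on the fluorescent marker mOrange after trypsin. The other 5 libraries carried a mutated miR-342-3p hairpin (2 libraries) or a miR-342-3p sponge (3 libraries), and they enter here for the spread between replicates and as further comparators. Untransduced cells were not analysed here. The titles call the libraries biological replicates, with no statement on separate cultures, so each p-value measures only the variation among these libraries, which may be technical. The scramble control is a sponge vector and the overexpression vector carries a hairpin, so in this comparison the microRNA and the type of vector cannot be told apart.

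A microRNA is a short RNA that guides Argonaute proteins to messenger RNAs, mostly through base pairing of its seed to a site in the 3′ untranslated region (UTR), and such pairing lowers the stability or translation of the target. A sponge is a transcript with many binding sites that is meant to capture a microRNA, and a scrambled sponge has a sequence that should capture none. miR-342 is processed from a hairpin inside an intron of Evl, a gene for an actin regulator. The series title names macrophages of liver metastases and an inflammatory phenotype under enforced miR-342 as the subject.

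The mature microRNAs of the hairpin are shown because the sites searched below follow from the seed of the first one. RefSeq (GRCm38.p6) places miR-342-3p at chr12:108658680-108658702 and miR-342-5p at chr12:108658638-108658659, on the plus strand. Capitals mark the seed, bases 2 to 8 from the 5′ end.
mmu-miR-342-3p: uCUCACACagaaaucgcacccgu
mmu-miR-342-5p: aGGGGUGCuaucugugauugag
The perfect match to the miR-342-3p seed in a target, followed by an A, is the 8mer site GTGTGAGA, and without that A it is the 7mer-m8 site GTGTGAG, which every 8mer contains. A target is read on its transcribed strand only. The following 30-base stretches of 3′ UTRs, from the GENCODE vM21 transcripts (GRCm38), are shown because they hold the 8mer of lower genes described below, and capitals mark it.
Cpped1: ttctaattgtgGTGTGAGActtcccacgtg
Wasl: agtttaattatGTGTGAGActgacacaaac
Casp2: ctacatatcacGTGTGAGAcaacttctttc
Ednrb: ggtgtgcgcgcGTGTGAGAgggattatttt
Zfp367: gaagcagagcaGTGTGAGAcatatgtataa
The 8mer stood at bases 208 to 215 of a 3′ UTR of 1636 bases in Cpped1, 285 to 292 of 2480 in Wasl and 1800 to 1807 of 2031 in Casp2. It stood at bases 119 to 126 of 2441 in Ednrb and 448 to 455 of 2296 in Zfp367. Socs6 also had an 8mer, at bases 113 to 120 of a UTR of 4019 bases.

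The hairpin itself checked the labels. Mir342 had 487, 483 and 242 reads in overexpression replicates 1, 2 and 3, and 0 reads in both scramble libraries. In CPM, the unit of level used here (counts scaled to the size of each library), the overexpression libraries had 8.22, 11.3 and 9.41. Against a floor of 3 counts over the scramble group, or 0.0328 CPM, the mean of 9.64 CPM was at least 294-fold higher. The mutated control had 2.86 and 3.22 CPM, and the 3 sponge libraries had 0 reads. The RNA was polyadenylated, so these reads come from longer transcripts around the hairpin, and mature miR-342-3p was not measured. Evl, the host gene, had 92.8, 82.1 and 81.4 CPM with overexpression and 86.8 and 88.7 CPM in the scramble libraries, which overlap (log2 fold change −0.04, SE 0.08, edgeR adjusted p = 0.86).

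The 5 compared libraries held 25712732 to 59259988 counts, and the other 5 held 41333662 to 50981542. Genes of macrophage identity were abundant in all of them: Csf1r, the receptor for the macrophage growth factor, had 1779, 1904 and 2103 CPM with overexpression and 2272 and 2090 CPM in the scramble libraries. All 12 macrophage markers were tested, and their summed level was 6080 to 6690 CPM with overexpression and 6790 to 7330 CPM in the scramble libraries. Of 13 markers of Kupffer cells, the resident macrophages of the liver, 10 were tested, with a summed level of 774 to 937 CPM with overexpression and 991 to 1040 CPM in the scramble libraries, most of it from the iron exporter Slc40a1 (741 to 1011 CPM). Of the defining markers of that list, Clec4f and Timd4 were at 0 in all 5 libraries and Vsig4 was at 0.0934 CPM at most. Of the hepatocyte list 1 of 8 genes was tested and 4 were at 0, and of the lymphocyte, neutrophil and erythroid list 1 of 14 was tested and 6 were at 0. Of 12 endothelial and stellate markers 6 were tested, with a summed level of 22.7 to 25.7 CPM against 24.6 to 26.8 CPM. On the first principal component (54% of the variance) overexpression replicate 1 stood at −23.4, replicates 2 and 3 at −9.45 and 1.68, and the scramble libraries at 3.25 and 5.19. Replicate 1 also differed by UTR length: relative to the scramble mean, the median of its genes in the longest of 4 equal classes of UTR length minus that in the shortest was −0.269 on the log2 scale. That difference was −0.0284 and 0.0533 in replicates 2 and 3. It was −0.173 in sponge replicate 3 and −0.0293 to 0.0618 in the remaining libraries. Deviations from the group mean correlated at 0.791 between overexpression replicate 1 and sponge replicate 3.

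With overexpression the monocyte chemokines Ccl2 and Ccl7 and the transcription factor Klf2 rose, a pair of genes with miR-342-3p sites fell, and few other genes passed the test. Of 15767 genes tested, 7 (0.0444%) passed an edgeR adjusted p of 0.05. The 5 higher genes (0.0317%) were Mir342, Ccl2, Ccl7, Klf2 and Plk3, and the 2 lower genes (0.0127%) were Cpped1 and Socs6. Over all genes the median log2 fold change was −0.01, and nearly all genes were of small size, with 5th and 95th percentiles of −0.55 and 0.38. Each library is a bulk sample, so a change in the share of a kind of cell and a change of RNA per cell cannot be told apart. Without scramble replicate 1, and likewise without scramble replicate 2, only Mir342 passed. The count was 19 without overexpression replicate 1, 4 without replicate 2, 15 without replicate 3 and 37 without sponge replicate 3, and DESeq2 called 234.

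**Figure D1:**
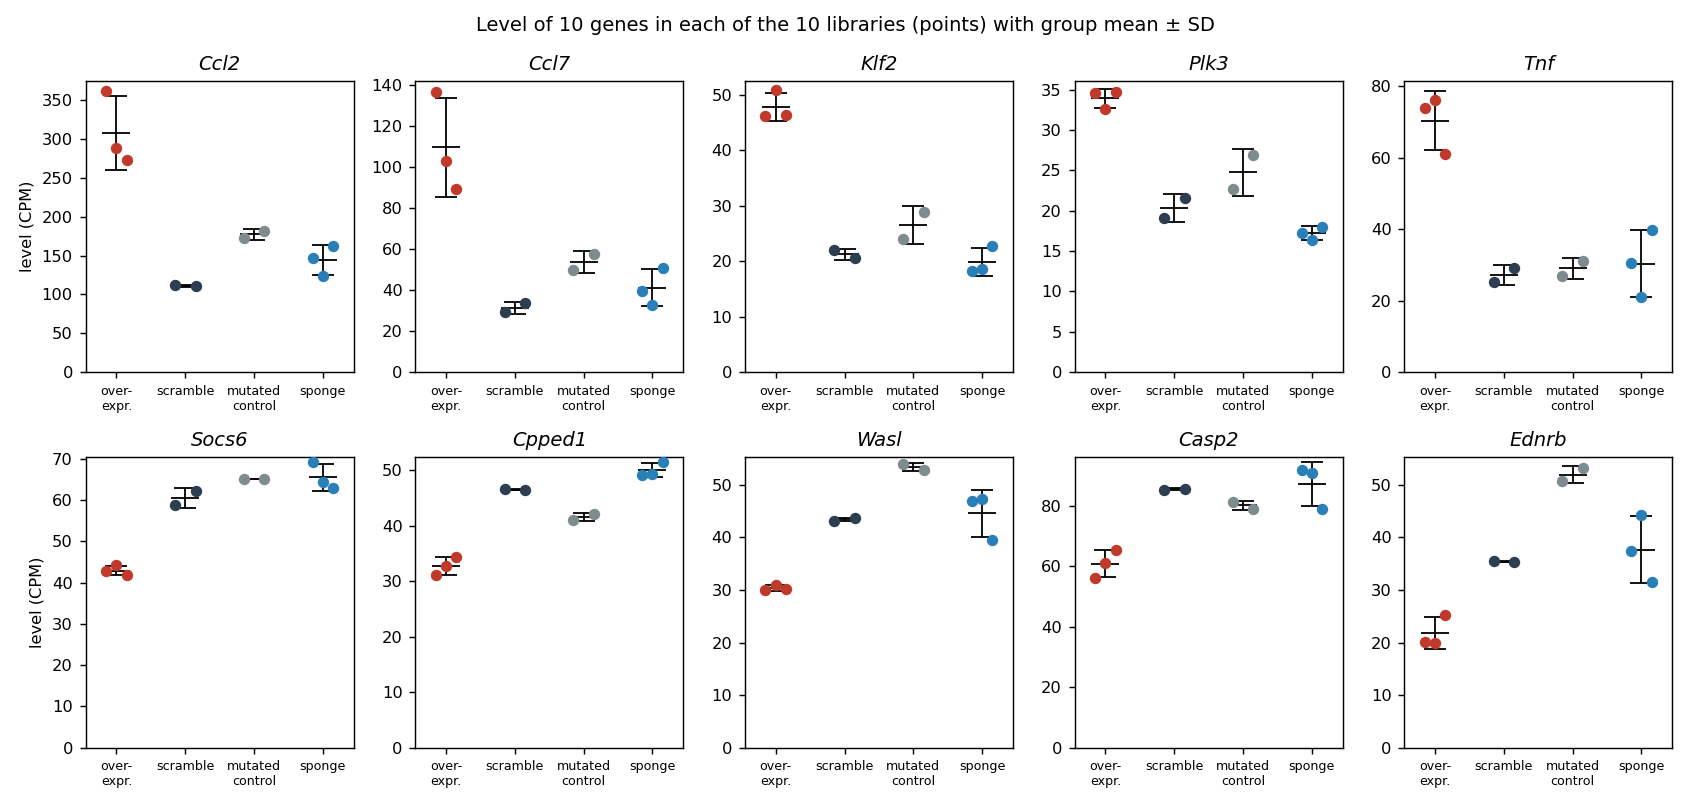
Level in CPM (linear axis from 0) of 10 genes in each of the 10 libraries, grouped by vector; points are libraries, the horizontal mark and bar are the group mean and SD. In the top row the overexpression libraries lie above all other 7 libraries and in the bottom row below them, as for Ccl2 at 273 to 362 CPM against at most 182 CPM elsewhere.

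Ccl2 and Ccl7 are chemokines that draw monocytes out of the blood through the receptor CCR2, and they lie next to each other on chromosome 11. The deposited file places Ccl2 from 81926397 to 81928279 and Ccl7 from 81936538 to 81938351, both on the plus strand. Ccl2 had 362, 288 and 273 CPM with overexpression and 112 and 110 CPM in the scramble libraries. Its rise was 2.78-fold (log2 fold change 1.47, SE 0.13, edgeR adjusted p = 0.00219). Ccl7 had 136, 103 and 89.3 CPM with overexpression and 29.1 and 33.4 CPM in the scramble libraries, a rise of 3.50-fold (log2 fold change 1.81, SE 0.20, edgeR adjusted p = 0.00954). For both genes the groups were apart by far more than the spread within them, and replicate 1 was the highest library. The mutated control had 173 and 182 CPM of Ccl2 and 49.9 and 57.5 CPM of Ccl7, between the other groups. Mutated control minus scramble had log2 fold changes of 0.68 and 0.78, neither past the test (edgeR adjusted p = 0.194 and 0.388).

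Klf2 encodes a Krüppel-like transcription factor that restrains inflammatory activation of myeloid and endothelial cells. The deposited file places it at chr8:73072877-73075500, plus strand. It had 46.2, 50.8 and 46.4 CPM with overexpression and 21.9 and 20.5 CPM in the scramble libraries, a rise of 2.26-fold (log2 fold change 1.17, SE 0.11, edgeR adjusted p = 0.00268). The 3 overexpression libraries were close to each other, and replicate 1 did not stand apart here. Plk3, a stress-responsive kinase of the polo family, lies at chr4:116985852-116991160 on the minus strand. It had 34.6, 32.6 and 34.7 CPM against 19.1 and 21.5 CPM, a rise of 1.67-fold (log2 fold change 0.74, SE 0.09, edgeR adjusted p = 0.0142). The UTRs of Ccl2, Ccl7, Klf2 and Plk3 held no 8mer and no 7mer-m8 site. The UTR of Klf2, of 737 bases, did hold the weaker 7mer-A1 site, which is the 8mer without its first base.

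The lower called genes both had an 8mer. Cpped1, a phosphatase, lies at chr16:11621585-11727309 on the minus strand. It had 31.2, 32.8 and 34.4 CPM with overexpression and 46.6 and 46.4 CPM in the scramble libraries, and fell by 0.51 on the log2 scale (SE 0.06, 1.42-fold lower, edgeR adjusted p = 0.0142). Socs6, a member of the SOCS family that directs signalling proteins to degradation, lies at chr18:88683348-88945605 on the minus strand. It had 42.7, 44.2 and 41.9 CPM against 58.9 and 62.1 CPM, and fell by 0.49 (SE 0.06, 1.41-fold lower, edgeR adjusted p = 0.0173). In both genes the spread within a group was a small part of the gap between groups.

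**Figure D2:**
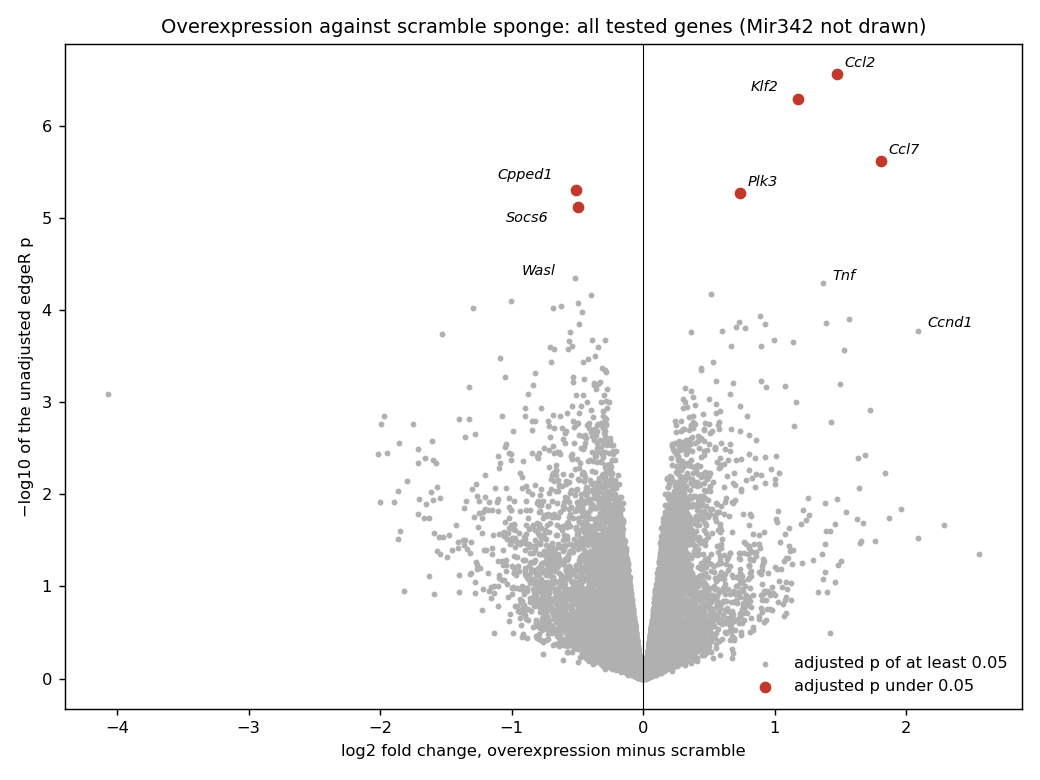
Each point is 1 tested gene, with its log2 fold change (overexpression minus scramble) on the horizontal axis and −log10 of the unadjusted edgeR p on the vertical axis; red points passed an adjusted p of 0.05, and Mir342 is not drawn. Ccl2, Ccl7, Klf2 and Plk3 stand apart on the right, Cpped1 and Socs6 on the left, and Wasl, Tnf and Ccnd1 lie just under the called genes.

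Below the threshold, 986 genes (6.25%) were higher and 1123 (7.12%) lower at an unadjusted edgeR p under 0.05. Both shares were smaller with either scramble library left out, so many counts at this p in the gene lists below rest on both scramble libraries. The count of higher chemokines did not change in this way. An adjusted p of 0.1 took 43 genes, 22 higher and 21 lower. In 2377 genes (15.1%) all 3 overexpression libraries lay above both scramble libraries and in 2509 (15.9%) below both, so a lack of overlap alone is common. Tnf, the central inflammatory cytokine of macrophages, had 73.9, 76.2 and 60.9 CPM with overexpression and 25.2 and 29.2 CPM in the scramble libraries (log2 fold change 1.37, SE 0.21, edgeR adjusted p = 0.0903). The libraries do not overlap. Ccnd1, a G1 cyclin, had the largest positive log2 fold change of the named genes after Mir342, at 2.09 (SE 0.37, edgeR adjusted p = 0.0952). It had 79.5, 99.9 and 71.3 CPM against 16.2 and 22.9 CPM. Bcl2l1, which encodes the survival protein Bcl-xL, had 126, 122 and 88.6 CPM against 51.1 and 61.0 CPM (1.00, SE 0.18, edgeR adjusted p = 0.0991). Plau, the urokinase that activates plasminogen, had 171, 179 and 124 CPM against 66.6 and 76.9 CPM (1.14, SE 0.21, edgeR adjusted p = 0.0991). In Tnf, Bcl2l1, Plau and Ccnd1 replicate 3 was the lowest overexpression library. Id1, a target of BMP signalling, was at a low level, with 1.54, 1.42 and 0.934 CPM against 0.505 and 0.414 CPM (1.56, SE 0.27, edgeR adjusted p = 0.0952). Epha2, an ephrin receptor, was as low, with 1.35, 1.38 and 1.36 CPM against 0.565 and 0.484 CPM (1.39, SE 0.24, edgeR adjusted p = 0.0952).

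Other genes of small p were moderate in size. Adam8, a membrane protease, had 220, 229 and 222 CPM against 171 and 177 CPM (log2 fold change 0.36, SE 0.07). Hpse, the heparan sulfate-degrading heparanase, had 51.6, 51.4 and 53.7 CPM against 68.2 and 69.3 CPM (−0.40, SE 0.06). The overexpression libraries were close to each other in these genes, and neither passed the test (edgeR adjusted p = 0.0943 for Hpse and 0.0952 for Adam8). Ptafr, the receptor for platelet-activating factor, had 29.4, 25.1 and 32.1 CPM against 42.6 and 42.1 CPM (−0.56, SE 0.10). Nfkbid, an atypical inhibitor protein of NF-kB, had 58.9, 44.3 and 47.0 CPM against 33.1 and 33.0 CPM (0.60, SE 0.11). Arl5c, a small GTPase of the ARF-like family, had −0.46 (SE 0.08), Wdr66 −0.62 (SE 0.10), Zfp322a −0.39 (SE 0.07), Dnajc28 −0.56 (SE 0.10) and Tacc2 0.77 (SE 0.14). The inhibitory receptor gene Pirb (−0.29, SE 0.05) and the guanylate-binding protein genes Gbp4 (−0.49, SE 0.09) and Gbp6 (−0.34, SE 0.06) belong to families of near-identical copies, so their reads may be split among copies. Among larger negative values, Mbnl3 had −0.92 (SE 0.28), Gprc5c −1.04 (SE 0.33) and Pdgfc, a growth factor, −0.81 (SE 0.22), with edgeR adjusted p-values of 0.242, 0.26 and 0.201. Tox2 had 10.9, 12.4 and 7.16 CPM against 3.39 and 3.83 CPM (2.83-fold higher, edgeR adjusted p = 0.152).

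Chemokine genes lay in both directions. Of 17 tested, 2 were called and 6 had an unadjusted p under 0.05 on the higher side, beside 4 on the lower side, with a list median of −0.02 against −0.01 over all genes. The 6 were Ccl2, Ccl7, Ccl12, Ccl3, Ccl4 and Cxcl2. Ccl3 and Ccl4, macrophage inflammatory proteins that attract leukocytes, had 146, 101 and 103 CPM against 70.0 and 56.4 CPM, and 116, 82.1 and 88.8 CPM against 60.1 and 55.3 CPM. Their log2 fold changes were 0.89 (SE 0.15) and 0.73 (SE 0.13). Cxcl2, a neutrophil chemokine, had 550, 394 and 403 CPM against 281 and 270 CPM (0.70, SE 0.13), and the edgeR adjusted p was 0.0952 for Ccl3, Ccl4 and Cxcl2. Ccl12, a further CCR2 ligand, had 23.04, 20.1 and 17.5 CPM against 10.8 and 11 CPM (0.90, SE 0.19, edgeR adjusted p = 0.152). In Ccl2, Ccl7, Ccl3, Ccl4, Cxcl2 and Ccl12 replicate 1 was the highest library. On the other side, Ccl22, a ligand of CCR4, had 0.945, 0.864 and 0.817 CPM against 1.70 and 1.52 CPM (−0.85, SE 0.20). Its UTR holds an 8mer, but the mutated control was also low, at 0.588 and 0.968 CPM. For Ccl22, overexpression minus mutated control had a log2 fold change of 0.20. Ccl5, a T cell chemokine, had 39.4, 30.2 and 32.0 CPM against 42.4 and 45.5 CPM (−0.37, SE 0.12). Without overexpression replicate 1 the counts were again 6 and 4, and edgeR called 5 of the 17. Without scramble replicate 1 they were 6 and 2, and without either scramble library edgeR called 0 of the 17.

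Inflammatory cytokines and mediators were also divided: of 20 tested, Tnf among them, 3 were higher and 3 lower at an unadjusted p under 0.05, 0 were called, and the median was −0.12. The counts were 2 and 6 without overexpression replicate 1 and 2 and 0 without scramble replicate 2. Tnfsf9, the ligand of the costimulatory receptor 4-1BB, had 19.3, 18.3 and 15.2 CPM against 10.8 and 12.1 CPM (0.62, SE 0.17, edgeR adjusted p = 0.198). Il6 had 1.67, 1.42 and 1.79 CPM against 2.74 and 3.83 CPM (−1.04, SE 0.27, edgeR adjusted p = 0.194), at a low level. Il1b had 9.72, 4.04 and 11.4 CPM against 17.4 and 10.4 CPM, which overlap. Of 20 genes for NF-kB subunits, inhibitors and feedback, 1 was higher (Nfkbib, 0.29, SE 0.13) and 2 were lower (Birc2, −0.22, SE 0.08; Birc3, −0.16, SE 0.07) at that p, 0 were called and the median was −0.01. Of 13 SOCS family and related suppressors, Socs6 was the only call, Cish had −0.43 (SE 0.15) and Socs5 0.18 (SE 0.07). Of 10 Krüppel-like factors, Klf2 was the only call, Klf7 had 0.43 (SE 0.12) and Klf10 −0.26 (SE 0.09).

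Immediate early genes, which follow growth factor and stress signals within minutes, had a median of 0.14. Of 21 tested, 8 were higher and 1 lower at an unadjusted p under 0.05 and 0 were called. Egr2 had 81.9, 68.0 and 87.5 CPM against 39.7 and 43.2 CPM (0.93, SE 0.16, edgeR adjusted p = 0.0952). Egr3 had 46.0, 36.3 and 59.9 CPM against 22.2 and 25.8 CPM (0.97, SE 0.28), and Myc 89.0, 88.7 and 68.2 CPM against 45.3 and 53.3 CPM (0.73, SE 0.18). Jun had 391, 394 and 397 CPM against 326 and 313 CPM (0.30, SE 0.07). Fos, in contrast, had 519, 463 and 626 CPM against 725 and 621 CPM (−0.33, SE 0.14), and the groups overlap. Without overexpression replicate 3 the counts were 5 and 2, and without scramble replicate 2 they were 4 and 1.

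**Figure D3:**
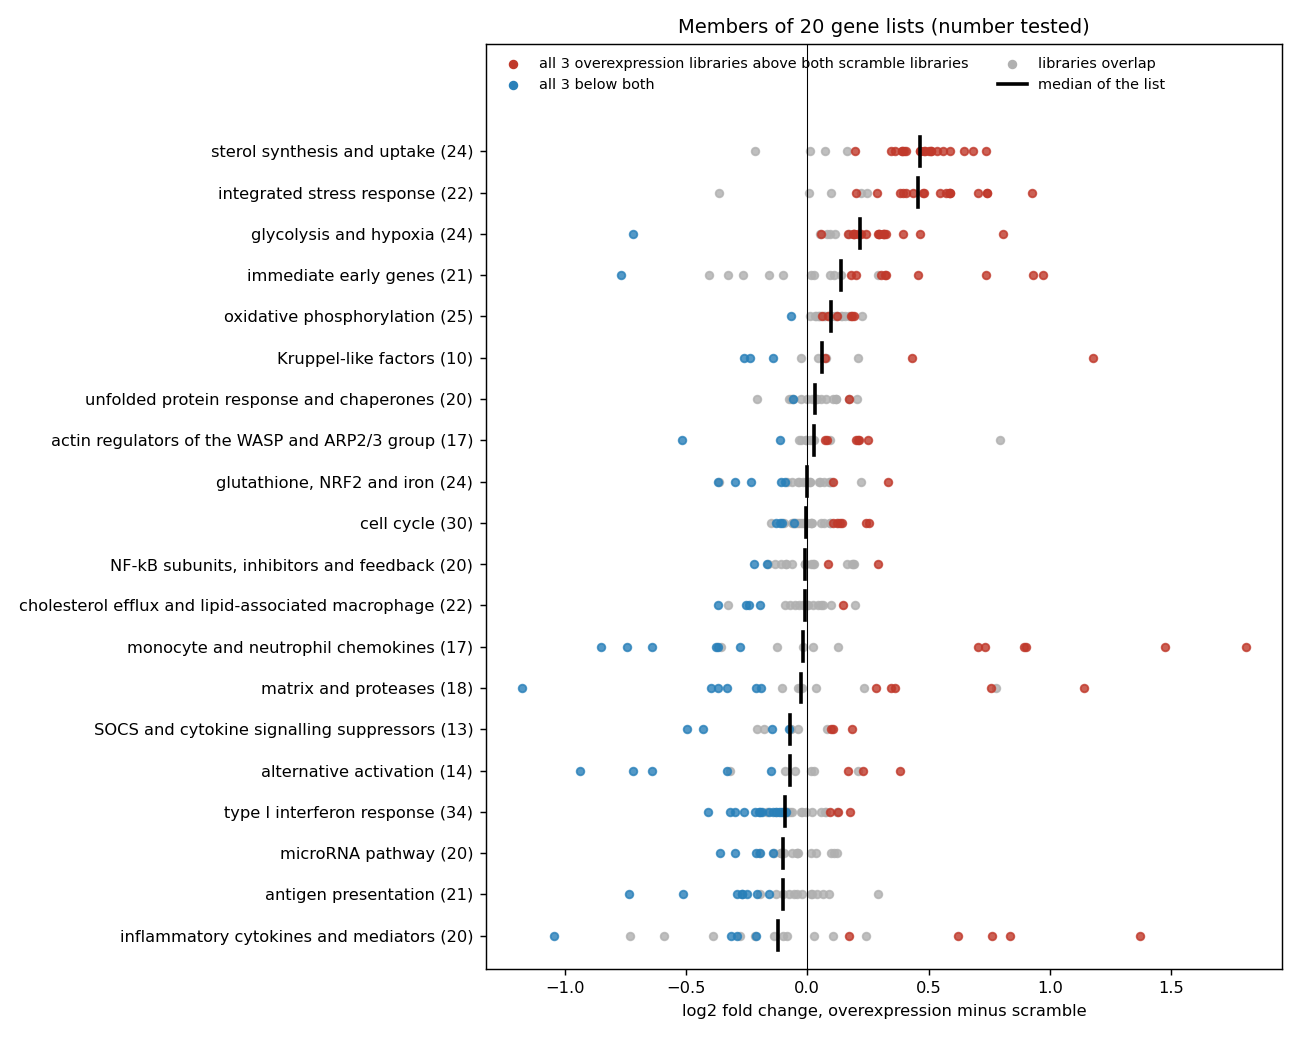
Log2 fold change (overexpression minus scramble, horizontal axis) of every tested member of 20 gene lists, ordered by their median (black bar); red and blue points are genes whose 3 overexpression libraries lie all above or all below both scramble libraries. The sterol and integrated stress response lists have medians of 0.46, glycolysis 0.22, and the chemokine list spreads from −0.85 to 1.81 around a median of −0.02.

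Sterol synthesis and uptake is the pathway from acetyl-CoA to cholesterol under control of SREBP2. Of 24 tested, 23 had a log2 fold change above 0 (47.7% of all genes did), 19 were higher and 0 lower at an unadjusted p under 0.05, and the median was 0.46. None was called by edgeR, and 9 were called by DESeq2, which called 234 of all 15767 genes. DESeq2 also called 6 of 17 chemokines, 5 of 18 matrix and protease genes and 3 of 22 integrated stress response genes. Fdps, which makes farnesyl diphosphate, had 9.03, 9.90 and 7.90 CPM against 4.76 and 5.92 CPM (0.74, SE 0.17, edgeR adjusted p = 0.183). Sqle, squalene epoxidase, had 99.3, 109 and 83.8 CPM against 59.4 and 65.3 CPM (0.64, SE 0.18, edgeR adjusted p = 0.21). Hmgcs1, the synthase of an early step, had 132, 135 and 109 CPM against 89.1 and 92.5 CPM (0.47, SE 0.14). Tm7sf2, a sterol reductase, had 13.7, 13.2 and 11.5 CPM against 9.16 and 9.08 CPM (0.50, SE 0.11). The list median over the scramble mean was 0.449, 0.569 and 0.279 in overexpression replicates 1, 2 and 3. It stayed between 0.401 and 0.536 with any 1 library left out, but the count of 19 was 11 of 25 without scramble replicate 1. In 7 of the 24 all overexpression libraries lay above the other 7 libraries, as in 3.54% of all tested genes.

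The integrated stress response list, genes that ATF4 turns on for amino acid supply and stress, had a median of 0.46 too. Of 22 tested, 21 were above 0, 14 were higher and 0 lower at an unadjusted p under 0.05, and 0 were called. Chac1, a glutathione-degrading enzyme, had 12.2, 12.4 and 9.61 CPM against 5.53 and 6.49 CPM (0.93, SE 0.26, edgeR adjusted p = 0.205). Psat1 and Psph, enzymes of serine synthesis, had 0.74 (SE 0.23) and 0.59 (SE 0.17). Psat1 had 106, 109 and 78.0 CPM against 53.6 and 63.1 CPM. Slc7a5, an amino acid transporter, had 119, 137 and 99.6 CPM against 62.9 and 82.8 CPM (0.70, SE 0.22), and Asns, asparagine synthetase, 140, 135 and 104 CPM against 80.0 and 88.1 CPM (0.59, SE 0.23). The member below 0 was Slc7a11, the cystine transporter subunit, with 11.98, 15.7 and 17.5 CPM against 15.7 and 22.3 CPM (−0.36, SE 0.17, edgeR adjusted p = 0.383). Its UTR holds an 8mer and its libraries overlap. The count of 14 varied with single libraries and rested on both scramble libraries. It was 7 without overexpression replicate 1, 18 without overexpression replicate 3 and 18 without sponge replicate 3. The list median stayed between 0.368 and 0.559 with any 1 library left out, and was lowest without scramble replicate 1. The list median was 0.488, 0.562 and 0.23 in overexpression replicates 1, 2 and 3. Of 20 unfolded protein response and chaperone genes 0 passed an unadjusted p under 0.05, with a median of 0.03, among them Dnajb11 at 0.17 (SE 0.09), Pdia6 at 0.17 (SE 0.11) and Herpud1 at 0.20 (SE 0.14).

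Genes of glycolysis and hypoxia had a median of 0.22, with 23 of 24 above 0, 12 higher and 1 lower at an unadjusted p under 0.05, and 0 called. Slc2a1, the glucose transporter, had 71.5, 67.3 and 62.1 CPM against 46.2 and 51.0 CPM (0.46, SE 0.12, edgeR adjusted p = 0.198). Pfkl, a phosphofructokinase, had 128, 127 and 109 CPM against 91.5 and 93.5 CPM (0.39, SE 0.10), Ldha 501, 468 and 412 CPM against 372 and 364 CPM (0.32, SE 0.11), and Gapdh 1404, 1259 and 1092 CPM against 999 and 1038 CPM (0.30, SE 0.14). The exception was Vegfa, an angiogenic growth factor, with 50.4, 42.9 and 66.8 CPM against 86.9 and 88.0 CPM (−0.72, SE 0.21, edgeR adjusted p = 0.221). The count of 12 was 3 without scramble replicate 1 and 4 without scramble replicate 2. Of 25 oxidative phosphorylation genes 1 was higher at that p (Uqcrc1, 0.19, SE 0.08) and the median was 0.10, with 0.234, 0.0721 and −0.00803 in replicates 1, 2 and 3. Cyc1 had 0.18 (SE 0.10) and Atp5b 0.14 (SE 0.09). Of 30 cell cycle genes 2 were higher (Rrm2, 0.24, SE 0.06; Ccnb2, 0.26, SE 0.09), Tpx2 had 0.13 (SE 0.06), and the median was −0.01.

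No gene of the interferon response and antigen presentation lists was called. Of 34 type I interferon response genes, 0 were higher and 8 lower at an unadjusted p under 0.05, 0 were called, and the median was −0.09. Ifit3b had 34.2, 31.7 and 30.8 CPM against 40.2 and 39.3 CPM (−0.30, SE 0.07, edgeR adjusted p = 0.184), and Ifit2 358, 371 and 420 CPM against 488 and 469 CPM (−0.32, SE 0.08). In 15 of the 34 all overexpression libraries lay below both scramble libraries, and in 3 (Isg15, Mx2 and Usp18) above. Over all tested genes these shares were 15.9% and 15.1%. Rsad2, the antiviral viperin, had 487, 471 and 483 CPM against 523 and 569 CPM (−0.19, SE 0.06), and its UTR holds an 8mer. Against the mutated control Rsad2 had −0.05. Irf7 had 621, 521 and 537 CPM against 666 and 633 CPM (−0.21, SE 0.08). The count of 8 was 4 without either scramble library. The values depended on the comparator: the median of the list was −0.217 for mutated control minus scramble and 0.132 for overexpression minus mutated control. Of 21 antigen presentation genes 0 were higher and 7 lower, 0 called, with a median of −0.10. These values too depended on the comparator: the median was −0.159 for mutated control minus scramble and 0.0932 for overexpression minus mutated control. Cd86, a costimulatory ligand, had 46.0, 43.1 and 50.2 CPM against 64.9 and 67.2 CPM (−0.51, SE 0.11, edgeR adjusted p = 0.165). B2m, the light chain of MHC class I, had 2782, 2341 and 2504 CPM against 3245 and 2880 CPM (−0.27, SE 0.09). Ctss had −0.29 (SE 0.09), Cd274 −0.25 (SE 0.08) and H2-D1 −0.21 (SE 0.07). Against the mutated control B2m had 0.02, Ctss −0.04 and H2-D1 −0.06, whereas Cd86 had −0.86 and Cd274 −0.30. The count of 7 was 2 without scramble replicate 1 and 4 without scramble replicate 2. Medians of this list in replicates 1, 2 and 3 were 0.00641, −0.203 and −0.118.

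The remaining lists held no call. Of 14 alternative activation genes 3 were higher and 3 lower at an unadjusted p under 0.05: Stab1, a scavenger receptor, had 100, 108 and 98.6 CPM against 70.8 and 85.8 CPM (0.38, SE 0.08). Tgm2, a transglutaminase, had 29.8, 27.7 and 38.3 CPM against 52.1 and 52.3 CPM (−0.72, SE 0.18) and Clec7a, the β-glucan receptor, 28.7, 23.7 and 39.2 CPM against 65.6 and 50.5 CPM (−0.94, SE 0.27). Of 18 matrix and protease genes 4 were higher and 4 lower, with Plau, Adam8 and Hpse as given, and the median was −0.03, or 0.09 without overexpression replicate 1. Of 22 cholesterol efflux and lipid-associated genes 0 were higher and 4 lower: Gpnmb had 2597, 2549 and 2778 CPM against 3174 and 3122 CPM (−0.25, SE 0.06), Mmp12 had −0.37 (SE 0.11) and the efflux transporter Abcg1 −0.24 (SE 0.08). Of 24 glutathione, NRF2 and iron genes 1 was higher (Hmox1, heme oxygenase, 0.33, SE 0.09) and 3 were lower, among them the iron transporters Slc11a1 (−0.23, SE 0.06) and Slc40a1 (−0.30, SE 0.11). Of 20 genes of the microRNA pathway 0 were higher and 2 lower: Pan2 had −0.20 (SE 0.07) and Tnrc6b, which holds an 8mer, −0.36 (SE 0.16). Ago4 had −0.30 (SE 0.14). Without overexpression replicate 1, 2 were higher and 1 lower, the median turned from −0.10 to 0.03, and the medians in replicates 1, 2 and 3 were −0.298, −0.0377 and 0.0447. Of 17 actin regulators of the WASP and ARP2/3 group 3 were higher and 1 lower, or 1 and 1 without overexpression replicate 1: Arpc2 had 0.21 (SE 0.09) and Arpc4 0.20 (SE 0.07), whereas Wasl is described with the site genes. Among the markers, Lyz2, lysozyme of macrophages, had 850, 745 and 920 CPM against 1210 and 1041 CPM (−0.43, SE 0.13), and the other 11 macrophage markers were at or above an unadjusted p of 0.05. Of the 10 tested Kupffer cell markers 1 was higher (Id1, as given) and 2 were lower at that p, 6 were above 0 and the median was 0.14. The lower ones were Slc40a1 and Spic, a transcription factor of Kupffer cells and red pulp macrophages, which had 11.4, 9.62 and 10.4 CPM against 14.3 and 13.7 CPM (−0.41, SE 0.10). H2-M2, a class I gene of low level, had −0.72 (SE 0.17).

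Genes with miR-342-3p sites were read against all tested genes with a UTR. A UTR was found for 12085 tested genes, and 618 of them (5.11%) held an 8mer. Their median log2 fold change was −0.05, and 63.1% were below 0, against 46% of the 8945 genes with no 7mer or 8mer site. At an unadjusted p under 0.05, 76 (12.3%) were lower and 25 (4.05%) higher, against 6.2% and 7.99% of genes with no site. The 1363 genes with a 7mer-m8 but no 8mer had a median of −0.02, with 6.75% lower and 6.31% higher. The 1159 genes with a 7mer-A1 only, Klf2 among them, had a median of −0.02, with 7.51% lower and 6.99% higher. Among genes with a UTR, 5 of the 20 lower genes of smallest p held an 8mer (25%), as did 12 of the first 100 (12%), and 0 of the 100 higher genes of smallest p did. The median UTR length of these 3 sets was 1905, 1647 and 1227 bases, against 1318 for all tested genes with a UTR.

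The genes with an 8mer and the smallest p on the lower side were Cpped1, Socs6, Wasl, Casp2, Ednrb and Zfp367. Wasl encodes N-WASP, which starts branched actin through ARP2/3. It had 30, 31 and 30.2 CPM with overexpression and 43.2 and 43.7 CPM in the scramble libraries (−0.52, SE 0.08, edgeR adjusted p = 0.0896). Casp2, an initiator caspase, had 56.2, 61.1 and 65.2 CPM against 85.3 and 85.7 CPM (−0.49, SE 0.08, edgeR adjusted p = 0.0943). Ednrb, the type B endothelin receptor, had 20.04, 20 and 25.3 CPM against 35.4 and 35.4 CPM (−0.71, SE 0.13, edgeR adjusted p = 0.0991). Zfp367, a zinc finger factor, had 71.5, 69.9 and 74.96 CPM against 91.8 and 87.4 CPM (−0.31, SE 0.06, edgeR adjusted p = 0.132). In Wasl the 3 overexpression libraries lay close together, far from the scramble libraries. An 8mer did not set the direction of every gene: Egr3, with an 8mer at bases 593 to 600 of its UTR, lay on the higher side.

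Site genes have longer UTRs (median 2724 bases, against 1003 for genes with no site), and UTR length moved with the fold change. Genes were therefore split into 4 equal classes of UTR length, with bounds at 584, 1318 and 2440 bases. The split did not match length fully, since 8mer genes still had longer UTRs within each class. Their median length was 1919 bases in class 3 and 3879 in class 4, against 1789 and 3196 for genes with no site. The part of this remaining gap in the values below was not tested. Genes with no site had medians of 0.05, 0.02, −0.00494 and −0.03 from class 1, the shortest, to class 4, and 8mer genes had 0.06, 0.01, −0.04 and −0.08. In class 3 the median of the 164 genes with an 8mer minus that of the 2099 with no site was −0.0358, −0.0337 and −0.0475 in overexpression replicates 1, 2 and 3, on the log2 scale relative to the scramble mean. In the other 7 libraries this difference ran from −0.02 to 0.0208. In class 4, with 350 genes with an 8mer, it was −0.073, −0.0392 and −0.02 with overexpression and −0.0182 to 0.0184 elsewhere. In these longer classes every overexpression library was thus below the other 7, though in class 4 replicate 3 was close to sponge replicate 3. The scramble libraries mirror each other around 0 by construction, since each gene is taken relative to their mean, so they are not independent values here. In class 1, with 26 such genes, the difference was positive in all 3 overexpression libraries (0.0493, 0.0389 and 0.012), with too few genes for more than its value.

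**Figure D4:**
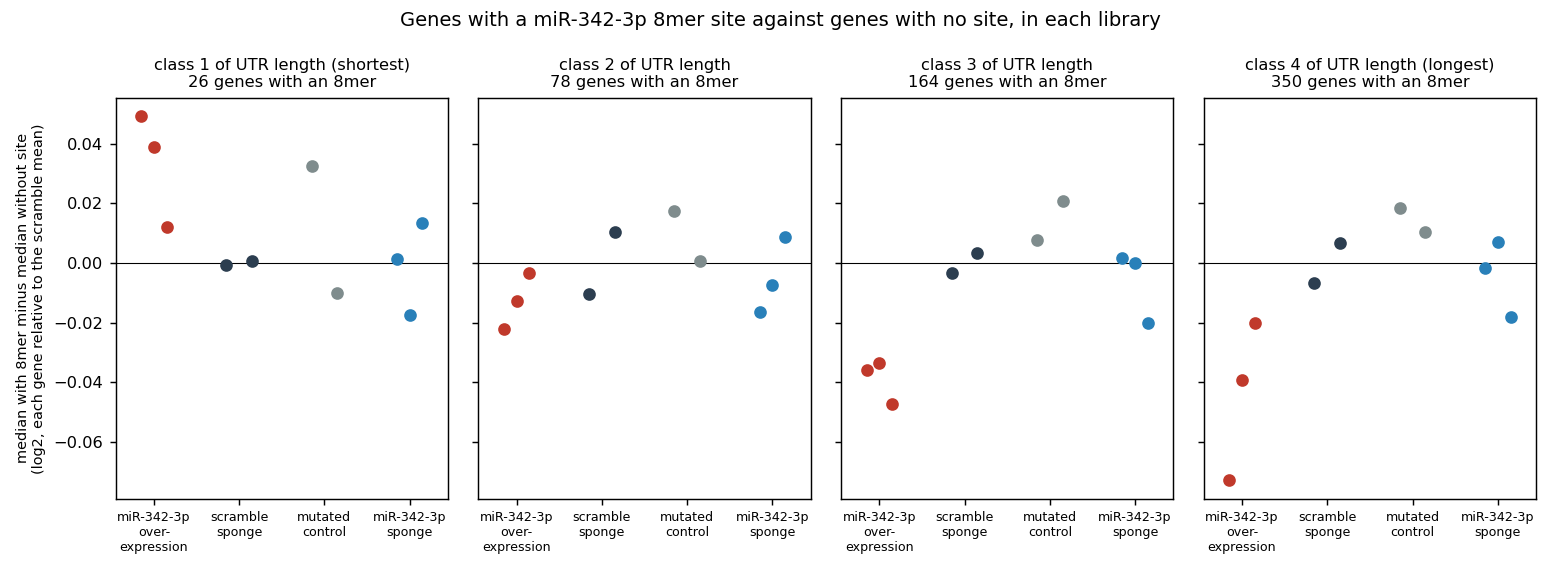
Median of genes with an 8mer minus median of genes with no site (log2, each gene relative to the scramble mean), in each library (points, grouped by vector) and in 4 classes of UTR length. In classes 3 and 4 the overexpression libraries lie below the other 7 libraries, at −0.0475 to −0.0337 and −0.073 to −0.02; in classes 1 and 2 they do not.

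The same overexpression libraries were set against the other groups, so the values that follow share those libraries and are given side by side. The test called 85 genes (0.539%) for overexpression minus mutated control, 121 (0.767%) for overexpression minus sponge and 4 (0.0254%) for mutated control minus scramble. Against the mutated control, 6 of the 7 called genes passed, and Plk3 had 0.46 (edgeR adjusted p = 0.052). Against the sponge all 7 passed, with Ccl2 at 1.09, Ccl7 at 1.42, Klf2 at 1.27, Plk3 at 0.98, Cpped1 at −0.61 and Socs6 at −0.61. Wasl had −0.81 against the mutated control and −0.55 against the sponge (edgeR adjusted p = 0.0056 and 0.00879), and Ednrb −1.26 and −0.80 (0.0056 and 0.0193). Tnf had 1.28 and 1.22 (edgeR adjusted p = 0.0303 and 0.0193). Casp2 had −0.40 and −0.52 (edgeR adjusted p = 0.0634 and 0.0149). Some other genes described above lay closer to the mutated control than to the scramble libraries. Against the mutated control, Cxcl2 had 0.17, Ccl3 0.28, Pirb 0.04, Gbp6 0.13 and Hmox1 0.01 (edgeR adjusted p = 0.461, 0.337, 0.732, 0.31 and 0.937). For Cxcl2 the mutated control had 390.5 and 408.6 CPM, which overlaps the overexpression libraries. Others lay further from the mutated control: Slc7a11 had −1.49, Il6 −2.06, Cd86 −0.86 and Hpse −0.60 (edgeR adjusted p = 0.00632, 0.00996, 0.0119 and 0.0056). Against the sponge, Slc7a11 had 0.22, Il6 0.01, Cd86 −0.23 and Hpse −0.57 (edgeR adjusted p = 0.495, 0.995, 0.281 and 0.00234). The direct test of the difference between the scramble and the mutated control as comparators is the contrast between those controls, which Mir342 passed among the 7 called genes (edgeR adjusted p = 0.00332).

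**Figure D5:**
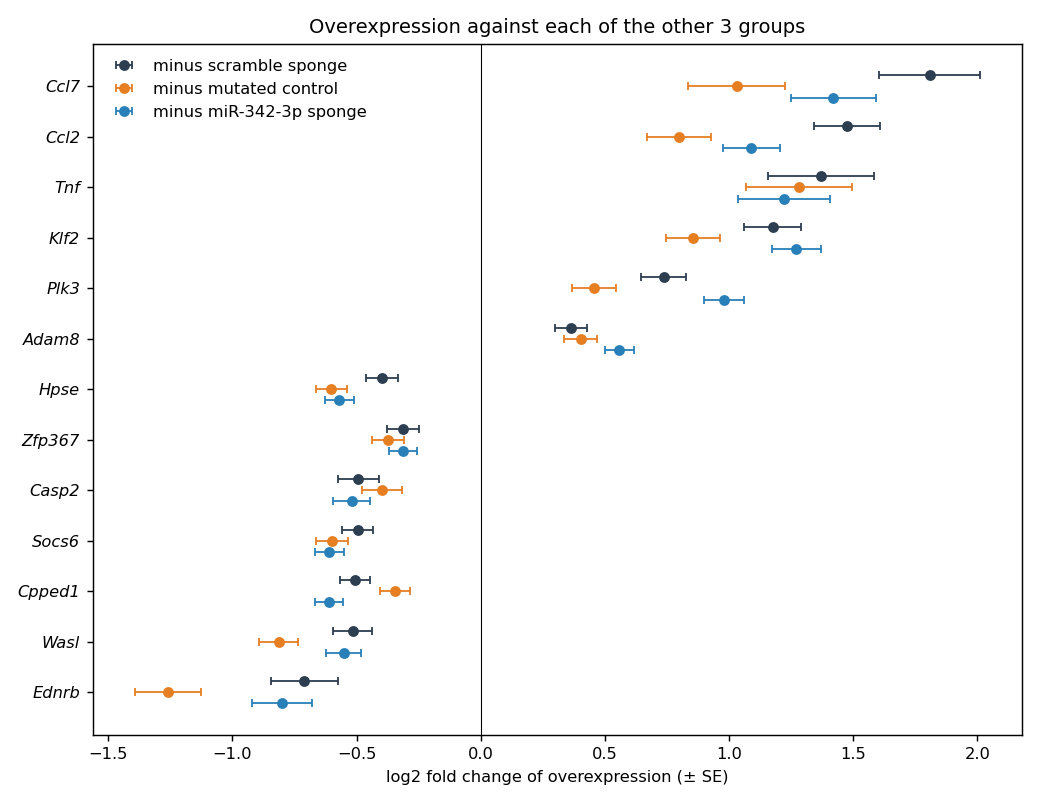
Log2 fold change of overexpression (points, bars are SE) against the scramble sponge, the mutated control and the miR-342-3p sponge for 13 genes. The 3 comparisons share the overexpression libraries. Ccl7 has 1.81 against the scramble sponge and 1.03 against the mutated control, and Ednrb has −0.71 and −1.26.

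Across all 10 libraries, the 3 overexpression libraries lay above the other 7 in 558 genes (3.54%) and below them in 533 (3.38%). The scramble libraries are 2 of these 7. The 7 called genes were among these genes, as were Tnf, Ccnd1, Bcl2l1, Egr2, Ccl3 and Ccl4 on the higher side and Wasl, Casp2 and Ednrb on the lower side. Of 17 chemokines 5 were above all other libraries and 0 below. Of those with a UTR, 45 of the 417 genes below all other libraries held an 8mer (10.8%), and 18 of the 513 above did (3.51%), beside 5.11% of all tested genes with a UTR. Their median UTR lengths were 1654, 1221 and 1318 bases in that order, and the part of length in these shares was not tested.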

How the data were processed

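Gene-level read counts of 10 libraries were analysed. Per the file headers, the authors counted read pairs with featureCounts 2.0.1 by gene name in GENCODE vM30, with a minimum overlap of 10 bases and strand setting 0, so reads of overlapping or antisense genes cannot be separated. The submitters' processing notes name STAR 2.7.6a, Trimmomatic, FastQC 0.11.6, Subread and the build GRCm38. The vM30 annotation belongs to a later build, so positions of genes are those of the deposited file, with no build named, and site positions are those of GENCODE vM21 (GRCm38). The counting command names 12 libraries, of which 10 are analysed here.

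The deposited lines hold 15 fields under 16 names, since a scramble count follows that of sponge replicate 3 without a separator. They were split where a negative binomial likelihood (dispersion 0.1) was at least 100 times that of the next place, and 51 of 55866 genes were left out. On 17 pairs of intact libraries joined on purpose, at least 99.9248% of genes were recovered. By the order of the header the last field belongs to the other scramble library: its group is sure, its replicate number is not.

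Counts were tested with edgeR 4.0.16 in R 4.3.3 (quasi-likelihood test with the robust option, TMM factors and a filter on low counts by group) in 1 fit of all 10 libraries and 4 groups with 6 residual degrees of freedom. Adjusted p-values are two-sided Benjamini-Hochberg values over 15767 genes, with a threshold of 0.05. A standard error (SE) is the size of the log2 fold change over the square root of F. CPM uses TMM factors. Functions were tested on simulated data. DESeq2 1.42.0 and limma 3.58.1 (voom) were among the alternatives.

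Seeds were searched in the longest 3′ UTR of each gene, found by symbol for 11927 tested genes and by another symbol for 158. Named genes were Mir342, Evl, every called gene and the 30 of smallest p with non-overlapping groups, a standard symbol and a mean log2 CPM of 2 or more. Up to 3 per list, up to 6 lower genes with an 8mer and the 5 largest changes per direction (unadjusted p under 0.01) were added. Further list members, among them Ccl12, Ccl5, Il1b, Psat1, Asns, Slc7a11, Sqle, Hmgcs1, Ldha, Gapdh, Egr3, Fos, B2m, H2-D1, Irf7, Id1 and Epha2, were described after their values were seen. The comparison, the gene lists and their members were chosen with earlier results of these data known. No set test was run: lists are described by counts and medians. Some genes that the rule named are not reported here.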

Additional observations from a re-analysis of the deposited data

How the results depend on the processing

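The count of 7 genes (5 higher, 2 lower) held, with the same 7 genes, under DESeq2's size factors in edgeR, upper-quartile factors, no robust option, limma-voom, a stricter low-count filter and both other splits of the joined field. DESeq2 called 234 (115 higher, 119 lower) and edgeR without a low-count filter 747 (350 higher, 397 lower), each with the 7 among them; the cause was not tested. A fold threshold of 1.2 called 4 (0 lower), and the 5 compared libraries alone called 6 (0 lower), with 3 residual degrees of freedom. With 1 library left out, the total ran from 1 to 37, the higher calls from 1 to 23 and the lower calls from 0 to 14. The largest adjusted p of a called gene with 1 library left out was 0.00432 for Mir342, 0.137 for Ccl2, 0.161 for Klf2, 0.288 for Ccl7, 0.299 for Cpped1, 0.369 for Plk3 and 0.472 for Socs6. Where 1 scramble library remained, it was assumed to vary like the other groups. The only reversal among the named genes was Evl: its log2 fold change ran from −0.102 to 0.00548 with 1 library left out, above 0 without overexpression replicate 3. A replicate block was fitted by title number and by the number in the library name, which disagree, with only 2 pairs each, so the numbers were not taken as a pairing. Deviations of same-numbered libraries correlated at 0.414 and 0.466 by title and at −0.466 and 0.226 by library name, over 10321 genes. The replicate block by title called 3 (3 higher, 0 lower) and by library name 5 (0 lower). The shallowest library, with 25712732 counts, sets the precision of genes of low level.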

Other observations

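Processed pseudogenes were not among the lists. Of 199 tested genes whose symbol ends in -ps and an optional number, 1 was higher and 27 lower at an unadjusted edgeR p under 0.05, and in 40 all overexpression libraries lay below both scramble libraries, against 12 above. Their median log2 fold change was −0.10. Over all tested genes, 6.25% were higher and 7.12% lower at an unadjusted edgeR p under 0.05. Without overlap, 15.9% of all tested genes lay below and 15.1% above. Sharing of reads with their parent genes was not tested, and the set was chosen after its values were seen. The share of counts on mitochondrial genes was 1.27%, 1.28% and 1.35% with overexpression and 1.48% and 1.31% in the scramble libraries; its part in the results was not tested.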
